A study of Mus musculus with 6 samples.

Results

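The genes described here encode the proteins of the cytoplasmic ribosome. They were chosen by symbol, as the rows of the deposited table whose name is Rpl or Rps with a number, with or without a closing a, l or x and a further digit, or Rplp with a digit, or Rpsa. The rule found 88 of the 49671 genes in the table, 52 for the large subunit and 36 for the small subunit. It used no measured value. The annotation lists 83 of them as protein-coding and 5 as pseudogenes, namely Rps3a2, Rps3a3, Rps4l, Rps12l1 and Rpl6l. All 88 have an entry in GENCODE M21, an annotation of the mouse genome build GRCm38.

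The RNA sequenced came from LKPR EPCAM+, a line of epithelial tumour cells grown out of a squamous cell carcinoma of mouse skin. The alleles in every group included Lgr5CreER, p53fl/fl and Rosa26-YFP+/+, so the cells of the control carried the same alleles as the others. Lgr5CreER is an inducible Cre driven by the stem cell gene Lgr5, which removes p53 and marks the cells with YFP. The control group had been transduced with the TRC1 empty vector, and the other groups with pLKO.1-puro lentivirus against Ntn1, the gene of the secreted guidance ligand netrin-1, or against Unc5b, the gene of a receptor for it, and puromycin resistance was tested afterwards. There were 3 groups of 2 libraries, made from living YFP+ and EPCAM+ cells that were sorted after 6 days of culture. All 6 libraries came from 1 line. The labels do not state whether replicate libraries stand for independent cultures, so a p-value here reflects the spread among these libraries alone, and that spread may be technical.

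Ribosomal proteins and ribosomal RNA are made in a fixed ratio, and the proteins are needed in every growing cell. The messenger RNAs of most ribosomal proteins begin with a run of pyrimidines, the terminal oligopyrimidine tract, through which the mTOR pathway and the RNA-binding protein LARP1 control their translation and stability. Transcription of these genes and of the ribosomal RNA genes is raised by the factor MYC. Because the samples are bulk RNA of sorted cells, fewer cells that express a gene and less of its RNA per cell cannot be told apart.

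The start-site sequences show how alike and how unlike these genes begin. The RefSeq promoter table of build GRCm38.p6 held 63 of the 88 members, with 75 listed starts. The motif searched was a run of at least 5 C or T that starts with C and begins within 10 bases of a listed start, on the gene's strand. It was present in 39 of these members, or 61.9%, against 34.4% of the 27025 genes of the table. The motif CGGAAG, searched on both strands of the 300-base promoter, was present in 42 members, or 66.7%, against 18.8% of all genes. The 8 windows of 30 bases that follow run 5′ to 3′ around a listed start, with the pyrimidine run in capitals. The members Rps10, Rpl15, Rpl35, Rpl7a and Rps6 are shown because they fell in the Ntn1 knockdown and have the run, Rpl38 because it has the run and was among the least different, and Rps3a1 and Rpl13 because they fell and have no such run in this window.
Rps10, chr17:27635225-27635254, minus strand: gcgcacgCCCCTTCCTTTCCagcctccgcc
Rpl15, chr14:18270967-18270996, minus strand: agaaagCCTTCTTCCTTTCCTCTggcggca
Rpl35, chr2:39005112-39005141, minus strand: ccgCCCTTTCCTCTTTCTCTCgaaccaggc
Rpl7a, chr2:26910797-26910826, plus strand: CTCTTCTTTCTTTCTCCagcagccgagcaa
Rps6, chr4:86857348-86857377, minus strand: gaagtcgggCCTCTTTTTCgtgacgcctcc
Rpl38, chr11:114668570-114668599, plus strand: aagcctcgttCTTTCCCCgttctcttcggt
Rps3a1, chr3:86142649-86142678, minus strand: gccggaagggcgaaagagcaagggtcacgt
Rpl13, chr8:123102340-123102369, plus strand: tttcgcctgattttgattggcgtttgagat

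Values are given as deposited, scaled by the authors to about 20 M per library and rounded to whole numbers. The estimated depth was 6.54 to 10.2 M reads per library, and 3 reads, a floor that covers counting error only, were worth 5.90 to 9.17. The Ntn1 knockdown libraries had the lowest depth, 8.41 and 6.54 M, beside 8.64 to 10.2 M in the other libraries. The part of depth in the values that follow was not tested. Ntn1 stood at 1566 and 2588 in the empty vector, 359 and 431 in its knockdown and 1319 and 771 in the Unc5b knockdown, and Unc5b at 1527 and 1573, 2311 and 2382, and 419 and 352 in the same order. The 10 epithelial markers listed were all measured, with summed values of 66166 to 69094 in the empty vector, 81320 to 85969 in the Ntn1 knockdown and 68385 to 72332 in the Unc5b knockdown. They did not move together. In the Ntn1 knockdown 3 were called higher (Krt5, Itga6 and Krt18) and 2 lower (Trp63 at -1.43 and Cldn4 at -0.67). Of all genes 8.04% were called higher and 7.06% lower there. Summed markers of other cells, in the empty vector, the Ntn1 and the Unc5b knockdown, were 1339 to 1475, 528 to 626 and 475 to 866 for fibroblasts, 1434 to 1679, 644 to 770 and 1258 to 1844 for immune cells, 2367 to 2913, 1093 to 1119 and 1668 to 1799 for melanocytes and nerve, and 96 to 108, 178 to 223 and 88 to 98 for endothelium. These sums were carried by few genes: in the Ntn1 knockdown Twist2, Csf1r, Mitf and Mbp fell and Cdh5 rose, and the other 6 of the 11 tested markers (Col1a1, Pdgfra, Cd14, Cd68, Pmel and Pecam1) did not pass, with estimates from -0.01 to 1.23. Of the markers that define these cells, Adgre1, Lyz2, Emcn and Dct were at 0 in every library. The part of these cells in the values that follow was not tested.

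The ribosomal protein genes together took up 2.28% and 2.43% of the library total in the empty vector, 1.85% and 1.90% in the Ntn1 knockdown and 2.24% and 2.37% in the Unc5b knockdown. Both Ntn1 knockdown libraries lay below the other 4, while the libraries of the other groups overlapped. The mean share was 2.36% ± 0.105 (SD, n = 2) in the empty vector, 1.88% ± 0.0305 (SD, n = 2) in the Ntn1 knockdown and 2.30% ± 0.0932 (SD, n = 2) in the Unc5b knockdown. The Ntn1 knockdown share was 0.796 of the empty vector share and 0.815 of the Unc5b knockdown share, and the Unc5b knockdown share was 0.977 of the empty vector share. Groups of 2 libraries cannot give an exact permutation p below 0.333, and no p is given for a sum over genes chosen together.

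Both subunits had the same order of groups. The large subunit genes took up 1.47% and 1.57% of the total in the empty vector, 1.21% and 1.24% in the Ntn1 knockdown and 1.44% and 1.53% in the Unc5b knockdown. The small subunit genes took up 0.807% and 0.863%, 0.642% and 0.660%, and 0.792% and 0.837%. The ratio of the Ntn1 knockdown to the empty vector was 0.805 for the large and 0.779 for the small subunit. It was 0.806 when the share was taken of protein-coding genes alone, 0.805 of a total without ribosomal RNA and mitochondrial genes, and 0.792 without Rplp0, the most abundant member.

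**Figure D1:**
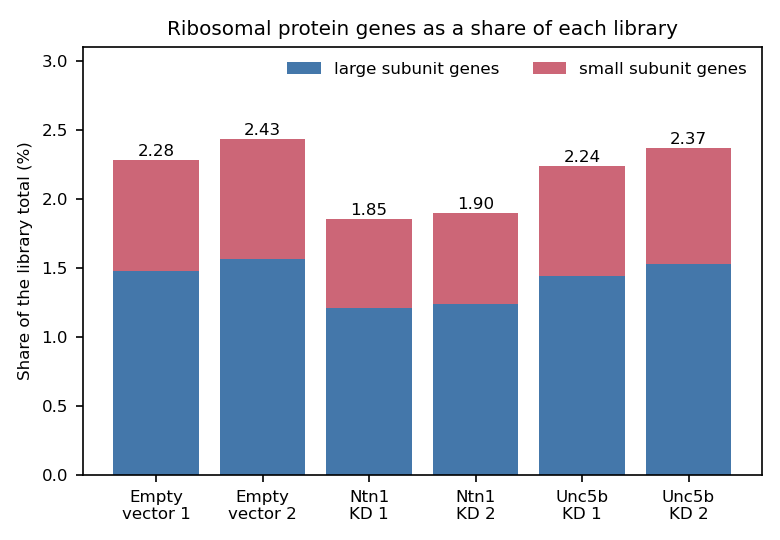
Stacked bars show, for each of the 6 libraries on the x axis, the summed value of the large and small subunit genes as a percentage of the library total, with the sum printed above each bar. The Ntn1 knockdown (KD) libraries reach 1.85% and 1.90%, below the 2.24% to 2.43% of the other 4 libraries.

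Other RNA classes also differed between the groups. Ribosomal RNA, counted with the lincRNA genes that lie beside or within the bounds of Rn18s-rs5, took up 4.76% and 4.68% of the total in the empty vector, 5.50% and 6.26% in the Ntn1 knockdown and 4.49% and 5.06% in the Unc5b knockdown. On the total without these RNAs the ratio of 0.805 given above was about as low. Mitochondrially encoded genes took up 1.94% and 2.34%, 2.07% and 2.05%, and 2.05% and 2.07% in the same order, with overlapping ranges.

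Among the 88 members, 84 had a mean of at least 20 over the libraries and were tested along with 15330 genes in all, 49 of them for the large and 35 for the small subunit. The members below that level are rare paralogues. Rpl10l and Rpl39l, retained copies known from testis, were listed at 0 in every library. Rpl3l, the form of Rpl3 known from striated muscle, was at 6 and 2 in the empty vector, 2 and 9 in the Ntn1 knockdown and 2 and 0 in the Unc5b knockdown. Rps4l was at 2 in empty vector library 1 and at 0 elsewhere. These values are near or below the worth of 3 reads.

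Levels of the tested members spanned a wide range. Rplp0, the central protein of the stalk that recruits elongation factors, had the highest mean, 19917, and made up 4.57% of the summed value of the members. Its values were 19350 and 20094 in the empty vector, 17317 and 17534 in the Ntn1 knockdown and 22059 and 23146 in the Unc5b knockdown, so the 3 groups did not overlap. The stalk proteins Rplp1 (5045 and 5060, 4192 and 4428, 5100 and 5719) and Rplp2 (3154 and 3370, 2799 and 2783, 3324 and 3516) were also lowest in the Ntn1 knockdown. None of the 3 stalk genes passed the test in any comparison.

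Next in mean level came Rpl4, which lines the exit tunnel, with 19896 and 19541 in the empty vector, 16261 and 15769 in the Ntn1 knockdown and 17785 and 18806 in the Unc5b knockdown. Rpl3, which reaches towards the peptidyl transferase centre, stood at 12200 and 12528, 10217 and 10476, and 12003 and 12994. Neither gene passed the test against the empty vector, with log2 fold changes in the Ntn1 knockdown of -0.30 ± 0.10 (SE) and -0.26 ± 0.10 (SE). Per kb of exon, the highest levels were 12005 for Rplp0, 9868 for Rplp1, 8973 for Rpl4, 8963 for Rpl23a and 8786 for Rps15. Rpl23a, a protein at the tunnel exit, stood at 7743 and 8510, 6829 and 7112, and 7583 and 7773, and Rps15 at 6232 and 6178, 4734 and 4828, and 5318 and 5920. Both had their lowest values in the Ntn1 knockdown. The lowest mean among the tested protein-coding members was 360, for Rpl29.

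In the Ntn1 knockdown against the empty vector, 24 of the 84 tested members fell and none rose, at an adjusted p under 0.05. Among those named here the fold changes lay between -0.73 for Rpl34 and -0.36 for Rpl12, with levels 39.7% and 21.9% below the empty vector mean. Over all genes tested the shares called were 7.06% lower and 8.04% higher. The fall took in 13 of the 49 large subunit genes and 11 of the 35 small subunit genes. The median log2 fold change, on the scale log2(value + 5), was -0.31 over the 84 members and -0.02 over all genes tested, with the middle 50% of members between -0.41 and -0.22 and of all genes between -0.30 and 0.28. The median was -0.27 for the large and -0.35 for the small subunit.

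The sign was negative for 82 of the 84 members on the deposited scale and under the median-of-ratios, trimmed mean and reduced-total scalings. When the libraries were instead centred on the members themselves, 49 were negative, 1 was called lower and the median of all genes moved to 0.26. Both Ntn1 knockdown libraries lay below both empty vector libraries for 73 members, or 86.9%, against 30.2% of all genes, and above them for 0 members, against 28.0% of all genes. The 11 members whose libraries overlapped were Rpl6l, Rpl9, Rpl17, Rpl21, Rpl29, Rpl41, Rps12, Rps12l1, Rps23, Rps26 and Rps27l. The number called rested on the library set, with 13 called without empty vector library 2, 33 without empty vector library 1 and 0 without either of the Ntn1 knockdown libraries. The median stayed between -0.36 and -0.24 in these fits. With the replicate number as a block 10 were called, with no variance trend 5 and with no filter on low values 6.

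**Figure D2:**
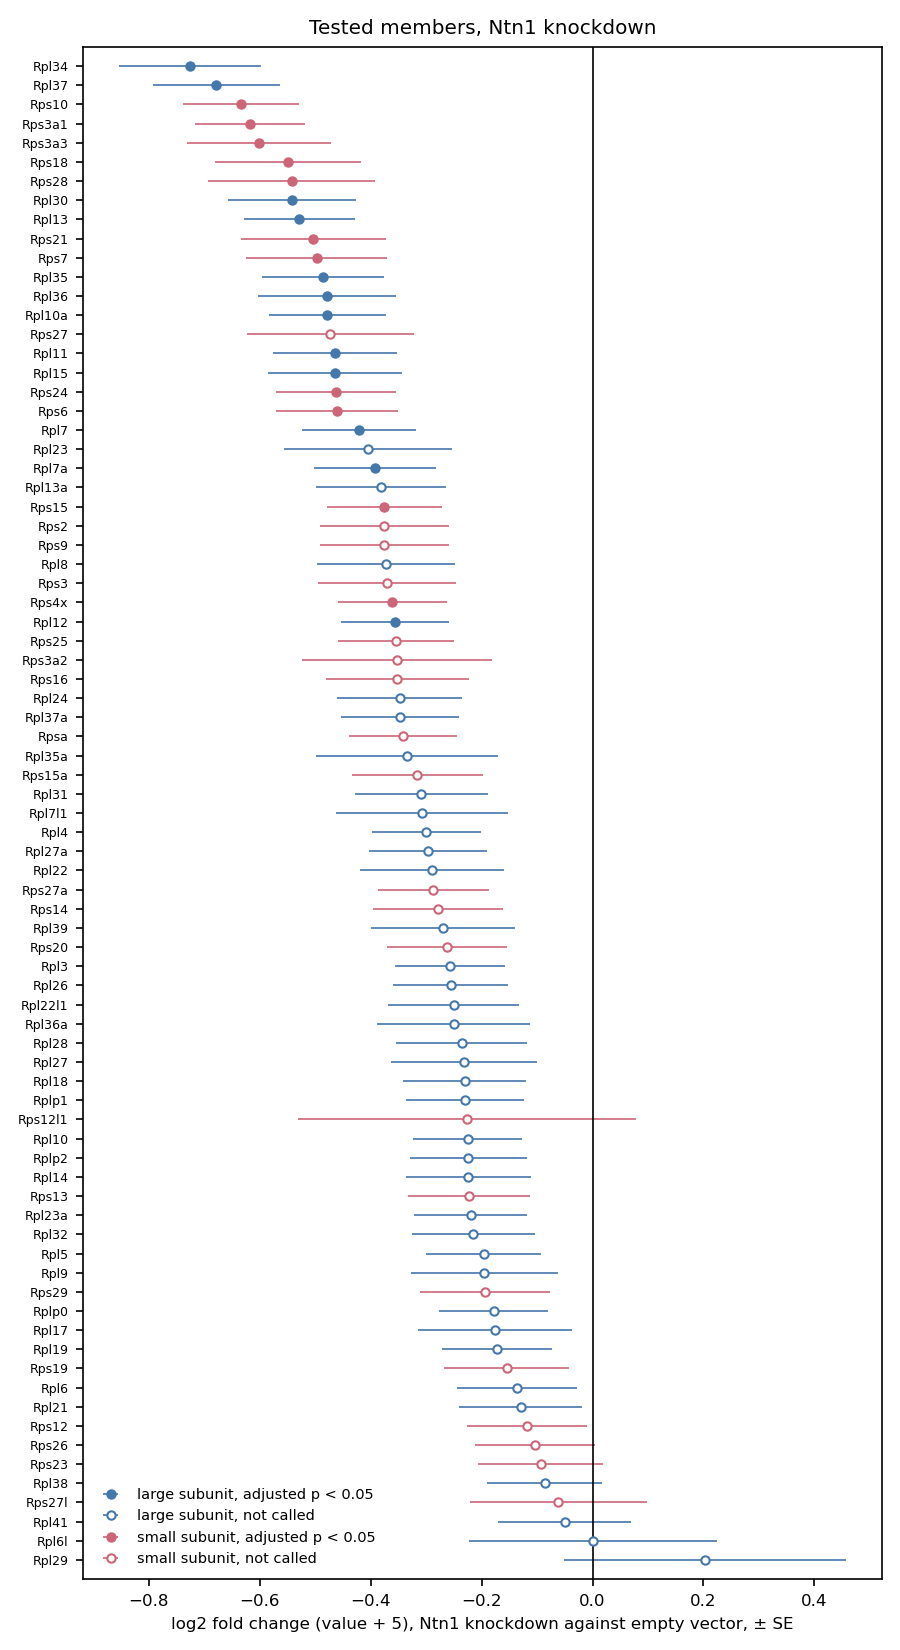
Each row is 1 of 79 tested members and the x axis is its log2 fold change on log2(value + 5) in the Ntn1 knockdown against the empty vector, with bars of 1 standard error. Filled points, 23 in all, have an adjusted p under 0.05, and on the deposited scale the estimates shown run from -0.73 for Rpl34 to 0.20 for Rpl29.

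Among the large subunit genes that fell, Rpl34 (chr3:130726831-130730398) stood at 1266 and 1306 in the empty vector, 754 and 798 in the Ntn1 knockdown and 1182 and 1346 in the Unc5b knockdown, a fall of -0.73 ± 0.13 (SE) in the Ntn1 knockdown with a limma adjusted p of 0.00759. Rpl37 (chr15:5116645-5119140) stood at 3359 and 3841, 2157 and 2330, and 3548 and 3551, with -0.68 ± 0.11 (SE) and 0.00627. For both, the Unc5b knockdown libraries lay among or beside those of the empty vector. Rpl13, at 11284 and 11558, 7806 and 8024, and 8598 and 9374, fell by 0.53 ± 0.10 (SE) on the log2 scale, with a limma adjusted p of 0.0103.

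Further large subunit genes that fell were Rpl30, Rpl35, Rpl36, Rpl10a, Rpl11, Rpl15, Rpl7, Rpl7a and Rpl12, with fold changes from -0.54 to -0.36. Rpl35 sits at the mouth of the exit tunnel, Rpl10a forms the mobile stalk at the exit site for transfer RNA, and Rpl12 lies at the base of the factor-binding stalk. Rpl11, which with Rpl5 carries the smallest ribosomal RNA and can bind the p53 regulator MDM2, stood at 4060 and 4580 in the empty vector, 3005 and 3244 in the Ntn1 knockdown and 4309 and 4498 in the Unc5b knockdown. Its fold change in the Ntn1 knockdown was -0.47 ± 0.11 (SE), with a limma adjusted p of 0.0268. Rpl5, at 9720 and 10783, 8829 and 9042, and 10614 and 11157, had -0.20 ± 0.10 (SE) and did not pass. The difference between the fold changes of Rpl11 and Rpl5 was not tested.

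Among the small subunit genes the lowest adjusted p was that of Rps3a1 (chr3:86137940-86142702), which stood at 6424 and 6517 in the empty vector, 4163 and 4266 in the Ntn1 knockdown and 6508 and 6914 in the Unc5b knockdown. The Ntn1 knockdown libraries lay 34.9% below the empty vector mean, with a fold change of -0.62 ± 0.10 (SE) and a limma adjusted p of 0.00510. Rps10 (chr17:27630418-27636669), a protein near the entry of the messenger RNA that is ubiquitinated when ribosomes collide, stood at 5752 and 6281, 3774 and 3975, and 4555 and 4751. It fell by 0.63 ± 0.10 (SE) on the log2 scale in the Ntn1 knockdown, with a limma adjusted p of 0.00581, and its 3 groups did not overlap.

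The other protein-coding small subunit genes that fell were Rps18, Rps28, Rps21, Rps7, Rps24, Rps6, Rps15 and Rps4x, with fold changes from -0.55 to -0.36. Rps6, the substrate of the ribosomal protein kinase downstream of mTOR, stood at 5485 and 6366, 4273 and 4312, and 5326 and 5316, with -0.46 ± 0.11 (SE) and a limma adjusted p of 0.0264. Rps4x, the X-linked member and the most abundant of the small subunit, stood at 12951 and 13532, 10239 and 10378, and 12399 and 13203, with a smaller estimate of -0.36 ± 0.10 (SE) and 0.0433. Rpl7, at 14234 and 15519, 11028 and 11167, and 12884 and 13791, was the most abundant member to fall, with -0.42 ± 0.10 (SE) and 0.0281. The remaining called row, Rps3a3, is annotated as a processed pseudogene and stood at 1637 and 1671, 1167 and 1015, and 1515 and 1723. Its values were 23.3% to 28.0% of those of Rps3a1 in every library. Reads of such copies and of the parent gene may be split between them by the counting.

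Of the members that did not pass, some stood just short of the threshold. Rpsa, the laminin receptor precursor, stood at 12338 and 11938, 9421 and 9739, and 11443 and 11975, with -0.34 ± 0.10 (SE) and a limma adjusted p of 0.0501 in the Ntn1 knockdown. Rps25 had 0.0558. Rpl8, Rpl13a, Rpl23, Rpl24, Rpl37a, Rps2, Rps3, Rps9, Rps16, Rps27 and the pseudogene-annotated Rps3a2 had estimates from -0.47 to -0.35 and did not pass. Rpl22, Rpl27a, Rpl31, Rpl35a, Rpl39, Rps14, Rps15a, Rps20 and Rps27a had estimates from -0.34 to -0.26. Rpl10, Rpl14, Rpl18, Rpl26, Rpl27, Rpl28, Rpl32, Rpl36a and Rps13 had estimates from -0.26 to -0.21.

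At the other end stood members with smaller estimates. Rpl17, Rpl19, Rps19, Rps29, Rpl6, Rps12, Rps26 and Rps23 had estimates from -0.19 to -0.09. For Rpl19, Rps19, Rps29 and Rpl6 both Ntn1 knockdown libraries still lay below both empty vector libraries, with means 9.07% to 12.6% lower. Rpl38, known for its role in the translation of Hox messenger RNAs, stood at 3646 and 3972 in the empty vector, 3557 and 3611 in the Ntn1 knockdown and 4367 and 4540 in the Unc5b knockdown, with -0.09 ± 0.10 (SE). Rpl41, which encodes the shortest ribosomal protein, stood at 6635 and 5687, 5699 and 6177, and 6200 and 6877, with -0.05 ± 0.12 (SE). Rpl29 stood at 417 and 242, 366 and 367, and 346 and 422, and its estimate of 0.20 ± 0.25 (SE) became -0.18 without empty vector library 2. Rpl6l, at 175 and 137, 143 and 168, and 143 and 146, had 0.00 ± 0.22 (SE).

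Library by library, the pattern was shared by most of the 80 tested protein-coding members. Relative to each gene's empty vector mean, the median log2 ratio was -0.33 in Ntn1 knockdown library 1, with 79 genes below 0, and -0.28 in library 2, with 78 below 0. It was -0.07 and 0.06 for the empty vector and -0.04 and 0.04 in the Unc5b knockdown. The empty vector libraries themselves differed, with 60 of the 80 genes lower in library 1.

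**Figure D3:**
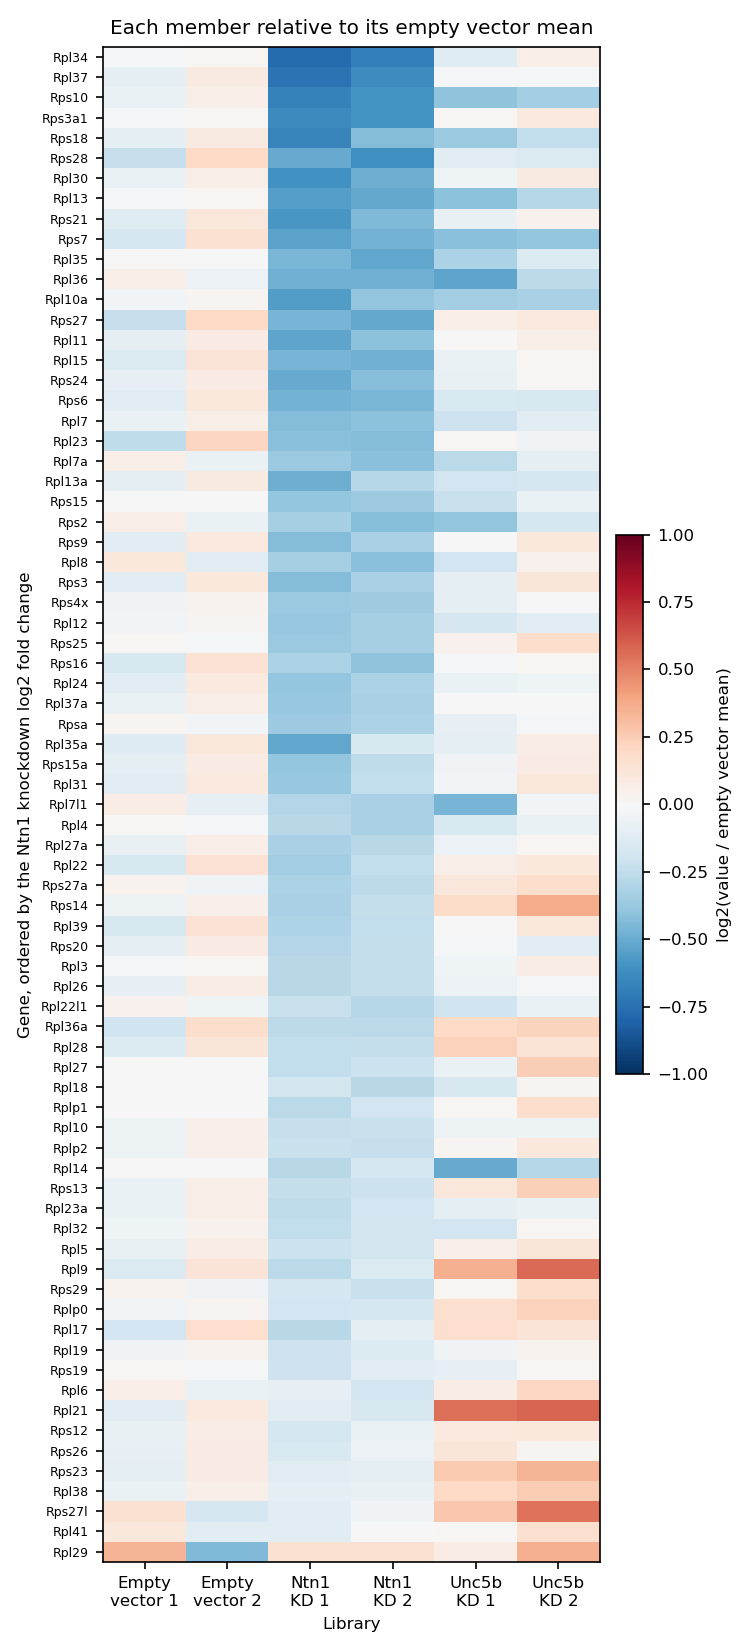
Colours give the log2 ratio of each of 75 tested protein-coding members (rows, in the order of the Ntn1 knockdown fold change) to its empty vector mean in each of the 6 libraries (columns), on the deposited scale. Both Ntn1 knockdown columns are blue for nearly all genes, with medians over all 80 of -0.33 and -0.28, and the Unc5b knockdown columns are mixed, with Rpl21 and Rpl9 the deepest red.

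The Unc5b knockdown against the empty vector gave 1 member that rose, Rpl21, and 1 that fell, where 5.90% of all genes were called higher and 6.07% lower. This comparison uses the same empty vector libraries as that of the Ntn1 knockdown. The median log2 fold change was 0.00 over the 84 members and 0.04 over all genes, with 42 estimates on each side of 0. Both Unc5b knockdown libraries lay below the empty vector for 19 members, or 22.6%, against 23.2% of all genes, and above it for 17 members, or 20.2%, against 28.7%. At an unadjusted limma p under 0.05 there were 14 members, or 16.7%, against 26.9% of all genes.

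Rpl21 (chr5:146832890-146837032) stood at 3473 and 3988 in the empty vector, 3476 and 3330 in the Ntn1 knockdown and 5450 and 5580 in the Unc5b knockdown. Its Unc5b knockdown libraries were above all others, with a fold change of 0.57 ± 0.11 (SE) and a limma adjusted p of 0.0142. The call was lost without any 1 of the Ntn1 or Unc5b knockdown libraries, and with no filter, no variance trend, the centring on the members or only the groups compared. The call of the member that fell was lost without any 1 library other than empty vector library 1, and with a pseudocount of 1, no filter, no variance trend or the replicate block.

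Other members with large estimates in the Unc5b knockdown did not pass. Rpl9, at 4013 and 4857, 3681 and 4039, and 5685 and 6571, had 0.47 ± 0.13 (SE) and a limma adjusted p of 0.0566. Rps27l (924 and 743, 775 and 813, 1005 and 1216), Rps23 (2382 and 2689, 2356 and 2388, 3037 and 3203) and Rps14 (2376 and 2543, 1964 and 2088, 2789 and 3183) had 0.41, 0.30 and 0.28. Rpl14, at 6654 and 6693, 5512 and 5923, and 4711 and 5478, had -0.39 ± 0.11 (SE) and 0.0586, and its lowest values were those of the Unc5b knockdown. Rps7 (5847 and 7335, 4539 and 4737, 4944 and 5024), Rpl36 (3209 and 2950, 2211 and 2202, 2142 and 2566) and Rps10 had -0.39, -0.39 and -0.37, without passing.

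Set directly against each other, the knockdowns differed in 12 members, all lower in the Ntn1 knockdown, where 2.95% of all genes were called lower and 4.15% higher. The median was -0.31 over the 84 members and -0.05 over all genes tested. It turned to 0.055 when the libraries were centred on the members, and was between -0.29 and -0.26 under the other 3 scalings. Both Ntn1 knockdown libraries lay below both of the Unc5b knockdown for 76 members, or 90.5%, against 31.3% of all genes. They lay above for Rpl14 alone, or 1.19%, against 24.4% of all genes.

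The 12 members were Rpl34, Rpl21, Rps3a1, Rpl9, Rpl37, Rps3a3, Rpl30, Rps14, Rpl11, Rps25, Rps24 and Rps27a, from -0.70 to -0.43. Rpl30 stood at 3133 and 3430 in the empty vector, 2159 and 2345 in the Ntn1 knockdown and 3178 and 3498 in the Unc5b knockdown, and Rps24 at 8077 and 9036, 6018 and 6385, and 8113 and 8642. Rpl9 had -0.66 ± 0.13 (SE) and a limma adjusted p of 0.0232, after an estimate of -0.20 against the empty vector. Rps14 had -0.56 ± 0.12 (SE) and 0.0290. Rps25, known for its use by viral internal entry sites, stood at 4255 and 4173, 3253 and 3339, and 4332 and 4755, with -0.46 ± 0.10 (SE) and 0.0363. Rps27a, made as a fusion with ubiquitin, stood at 5833 and 5581, 4584 and 4767, and 6175 and 6453, with -0.43 ± 0.10 (SE) and 0.0387. The count was 29 without either of the empty vector libraries, 1 without Unc5b knockdown library 1, and 0 without Unc5b knockdown library 2 or either of the Ntn1 knockdown libraries. It was 4 with the replicate block, 7 under the median-of-ratios and the trimmed mean scaling, 1 with no filter and 0 with no variance trend.

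The expressed paralogues were measured beside their parent genes. Rpl22l1, a paralogue that can replace Rpl22, stood at 1670 and 1573, 1391 and 1333, and 1415 and 1545, and Rpl22 at 2620 and 3240, 2297 and 2471, and 3059 and 3155. The paralogue's value was 63.7% and 48.5% of that of Rpl22 in the empty vector, 60.6% and 53.9% in the Ntn1 knockdown and 46.3% and 49.0% in the Unc5b knockdown. The empty vector range overlapped those of both knockdowns, which did not overlap each other, and the ratio was not tested. Rps27l, a p53-responsive paralogue of Rps27, was at 45.8% and 27.2%, 45.1% and 49.0%, and 40.5% and 47.9% of the value of Rps27, which stood at 2018 and 2728, 1719 and 1660, and 2484 and 2541. Rpl7l1, a factor of large subunit assembly, stood at 2144 and 1928, 1660 and 1624, and 1479 and 1997. Rpl10, the parent of Rpl10l, stood at 9663 and 10401, 8550 and 8599, and 9676 and 9661, and Rpl39, the parent of Rpl39l, at 2936 and 3629, 2654 and 2761, and 3287 and 3560. None of the 3 expressed paralogues passed the test in any comparison.

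The length of the gene moved with the fold change among other genes. In the Ntn1 knockdown, protein-coding genes outside the members with a mean over 1000 had a median log2 fold change of -0.26 up to 1000 bases of exon (n = 33), -0.17 from 1000 to 1500 bases (n = 76), -0.06 from 1500 to 2000 (n = 125), -0.03 from 2000 to 3000 (n = 415), -0.03 from 3000 to 5000 (n = 1152) and 0.02 over 5000 (n = 2736). The members in the same length ranges had -0.22 (n = 11), -0.31 (n = 14), -0.31 (n = 19), -0.38 (n = 20), -0.26 (n = 14) and -0.39 (n = 2). Other genes of up to 1000 bases with a mean over 1000 had a median about as low as that of the members. Over all 326 tested protein-coding genes of up to 1000 bases outside the members it was -0.12. Above that exonic length the members' medians lay below those of the other genes with a mean over 1000. Exonic length joins all annotated exons of a gene, so it can exceed the length of its messenger RNA. For Rps19 it was 4685 bases beside a messenger RNA of 774, and for Rpl30 3020 beside 886. The other genes were not sorted by messenger RNA length. Across the 80 tested protein-coding members Pearson's r of the fold change with log10 exonic length was -0.12, a description of genes that share the same libraries. The part of length in the members' values was not tested.

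**Figure D4:**
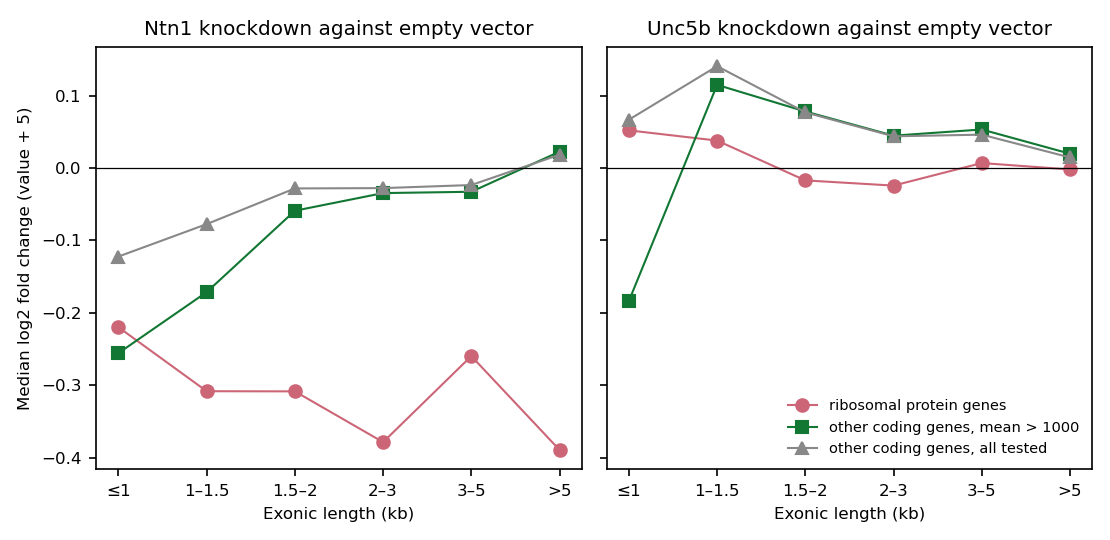
Median log2 fold change on log2(value + 5), on the deposited scale, by exonic length for the members and for other protein-coding genes, all tested or with a mean over 1000, in the Ntn1 (left) and Unc5b (right) knockdown against the empty vector. On the left the members lie between -0.39 and -0.22 at every length and the other abundant genes rise from -0.26 to 0.02. On the right the members lie between -0.02 and 0.05, and the 33 abundant genes of at most 1 kb stand at -0.18.

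Ribosomal protein genes have many processed copies in the genome. In the 80 tested protein-coding members a median of 59.9% of 31-base windows, with a range of 2.60% to 99.0%, also occurred in transcripts of other genes. The median fold change in the Ntn1 knockdown was -0.32 for the 50 members with over 50% of windows shared and -0.30 for the 30 others. Exons of 38 members overlapped those of another gene, 19 of them on the other strand, and the members with no overlap had a median of -0.31. The 276 rows named as ribosomal protein pseudogenes took up 0.0369% and 0.0420% of the total in the empty vector, 0.0330% and 0.0326% in the Ntn1 knockdown and 0.0360% and 0.0388% in the Unc5b knockdown. Among members in the promoter table, the median in the Ntn1 knockdown was -0.31 for the 36 with a pyrimidine run and -0.35 for the 24 without.

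Of 4 listed ribosomal protein genes that go by other names, 2 fell in the Ntn1 knockdown, where 7.06% of all genes were called lower and 8.04% higher. Fau, a ubiquitin-like fusion with a small subunit protein, fell by 0.53 ± 0.11 (SE) on the log2 scale in the Ntn1 knockdown, with a limma adjusted p of 0.0151. Rack1 and Rpl36al did not pass. Adding all 4 to the members left the ratio of shares at 0.795.

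Other genes whose RNAs are known to carry the tract, mostly elongation factors and initiation subunits, gave 5 of 23 with a fall in the Ntn1 knockdown, 0 with a rise and a median of -0.19. Over all genes 7.06% were called lower and 8.04% higher there, beside 6.07% and 5.90% in the Unc5b knockdown. In the Ntn1 against the Unc5b knockdown 2.95% of all genes were called lower and 4.15% higher. Of the 23 estimates 18 were negative and 5 positive, and the non-coding RNAs Gas5, Snhg1 and Snhg8 were among the positive, at 0.33, 0.31 and 0.16. The largest falls were those of Eif3e, Eif3f and Eif3m, subunits of initiation factor eIF3, at -0.59, -0.55 and -0.49. In the Unc5b knockdown 0 of the 23 were called, with a median of -0.02. Against the Unc5b knockdown, Eif3e and Eif3f fell, at -0.53 and -0.49. Of 22 further initiation factors, 3 rose in the Ntn1 knockdown, Eif3b at 0.82, Eif5 at 0.64 and Eif1 at 0.50, and Eif4ebp1, the mTOR target that holds back eIF4E, fell, at -0.44. In the Unc5b knockdown, which was set against the same controls, these 4 genes were called at 0.65, 0.55, 0.41 and -0.55.

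The genes for the making of ribosomes are read against the 8.04% of all genes called higher and 7.06% called lower in the Ntn1 knockdown. In the Unc5b knockdown these shares were 5.90% and 6.07%, and in the Ntn1 against the Unc5b knockdown 4.15% and 2.95%. Estimates were negative for 46.1% of all genes in the Unc5b knockdown and for 55.3% in the Ntn1 against the Unc5b knockdown. Of 64 tested genes for ribosome assembly and ribosomal RNA processing, 1 rose (Las1l, 0.69) and 2 fell (Nop14, -0.62, and Ddx47, -0.44) in the Ntn1 knockdown. Their median was 0.14 with 50 positive estimates, while 51.6% of all genes had a negative one. In the Unc5b knockdown, set against the same controls, 53 of the 64 were positive and the median was 0.18. Against the Unc5b knockdown the median in the Ntn1 knockdown was -0.08, with 36 negative, beside -0.05 for all genes. For most of these assembly genes empty vector library 2 lay below library 1, some by a wide margin. Nolc1 stood at 4803 and 2467 in the empty vector, 4047 and 3712 in the Ntn1 knockdown and 3009 and 4470 in the Unc5b knockdown. Bop1 stood at 1439 and 887, 1436 and 1138, and 1220 and 1628. Rrp1 was level in the empty vector, at 2930 and 2947, with 3281 and 3198, and 2702 and 2937. The part of empty vector library 2 in the positive estimates was not tested. Of 16 genes for RNA polymerase I transcription 0 were called in the Ntn1 knockdown, and Polr1d (0.69) and Taf1d (0.62) rose in the Unc5b knockdown. Mitochondrial ribosomal proteins, which belong to another ribosome, gave 3 of 78 that fell in the Ntn1 knockdown, with Mrpl33 at -1.01, 0 that rose and a median of -0.07. In the Unc5b knockdown 2 of the 78 fell, 0 rose, 64 estimates were positive and the median was 0.19. Between the knockdowns 3 were lower in that of Ntn1 and 0 higher, 70 estimates were negative and the median was -0.26, beside -0.31 for the cytoplasmic members and -0.05 for all genes.

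Of 31 tested regulators of these pathways, there were 5 with a rise and 3 with a fall in the Ntn1 knockdown, where 8.04% of all genes were called higher and 7.06% lower. Deptor, an inhibitor of mTOR, rose by 0.84 on the log2 scale and Myc by 0.68, with a limma adjusted p of 0.0154, and Maf1, a repressor of RNA polymerase III, fell by 0.73. Sesn2, Larp4 and Mdm2 were the others that rose, and Eef2k and Tsc2 the others that fell. Larp1 was at -0.42 ± 0.15 (SE) against the empty vector, with a limma adjusted p of 0.106, and lower than in the Unc5b knockdown at -0.72 ± 0.15 (SE) with 0.0291. In the Unc5b knockdown 2 regulators rose and 1 fell, where 5.90% of all genes were called higher and 6.07% lower. Deptor was among those that rose there, at 0.92 ± 0.24 (SE). Myc stood at 0.50 ± 0.14 (SE) in the Unc5b knockdown, with a limma adjusted p of 0.0585, and Maf1 at -0.34 ± 0.15 (SE), without passing. Against the Unc5b knockdown, Deptor, Myc and Maf1 were at -0.08, 0.18 and -0.40 in the Ntn1 knockdown, and none passed.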

How the data were processed

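RNA sequencing libraries, 6 in all, fell into 3 groups of 2 by their labels. The deposited table holds a score, whole numbers that the authors scaled to about 20 M per library. Per the submitters' processing notes, the tools were STAR, Picard and HTSeq on build GRCm38, also called mm10. Annotation, strand, counting options and scaling method were not given in the sources used here. Depth was estimated from the spacing of values up to 150, which were multiples of a step within a rounding tolerance of 0.5. The step lies near 2, so the depth is an estimate and no count model was fitted.

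Genes with a mean of at least 20 were analysed as log2(value + 5), which understates the change of low genes. The limma package (version 3.58.1, under R 4.3.3) was used to fit 1 model of the 3 groups over the whole set of libraries, with a variance trend, 3 residual and 5.33 prior degrees of freedom, 2-sided tests and Benjamini-Hochberg adjustment over all 15330 genes within each comparison, and was tested on simulated data. Fold changes are from this model, and percent differences are of group means as deposited. Gene positions, biotypes and exonic lengths came from GENCODE M21. Copies were searched in its transcripts, since no genome sequence was used here.

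Some genes are counted but not reported here by name, in the text or the figures. The members and all gene lists were chosen with earlier results of these data known. Values in every library were given for the most abundant members, those with the largest fold changes and the paralogues with their parent genes. They were also given for the members called, or the 6 with the lowest adjusted p where more than 12 were called. Other genes were named by list, as a rule with up to 3 examples and without library values. Alternatives varied the filter, pseudocount, variance trend, scaling, replicate block and libraries.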

Additional observations from a re-analysis of the deposited data

How the results depend on the processing

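The ratio of summed shares kept its direction in the Ntn1 knockdown when 1 library was left out, from 0.771 to 0.822 against the empty vector and 0.792 to 0.839 against the Unc5b knockdown. The filter, pseudocount, variance trend and replicate block do not enter a share, and a factor per library cancels out of it. For the Unc5b knockdown against the empty vector it was 0.947 to 1.01. An alternative chosen after seeing the data, without the 5 members annotated as pseudogenes, gave 0.796 and 0.815. Members called lower in the Ntn1 knockdown against the empty vector (24) were 6 with no filter, 5 with no variance trend, 1 with the libraries centred on the members and 0 to 33 when 1 library was left out. The median log2 fold change was -0.032 with that centring, which brings it near 0 by construction, and -0.36 to -0.24 with 1 library left out. Against the Unc5b knockdown the members called lower (12) were 1 with no filter, 0 with no variance trend, 7 under the median-of-ratios and 7 under the trimmed mean scaling, 0 with the centring, 29 when only the groups compared were fitted and 0 to 29 with 1 library left out. With the centring 1 member was called higher and the median was 0.055. In the Unc5b knockdown against the empty vector, the 1 member called higher was 0 with no filter, no variance trend, the centring or only the groups compared, and 0 to 2 with 1 library left out. The 1 called lower was 0 with no filter, a pseudocount of 1, no variance trend, or only the groups compared, 2 under the median-of-ratios, the trimmed mean and the centred scaling, and 0 to 3 with 1 library left out. Of the 84 tested members, the centring changed the sign of 33, 19 and 51 estimates (Ntn1 and Unc5b knockdown against the empty vector, and Ntn1 against Unc5b knockdown), the median-of-ratios and the trimmed mean scaling that of 0, 10 and 0, and leaving out 1 library that of 0 to 3, 0 to 19 and 0 to 4. Of the estimates given singly, the centring turned those of Rpl3 (0.019), Rpl5 (0.080), Rpl9 (0.081), Rpl38 (0.19), Rpl41 (0.23) and Rps27l (0.21) in the Ntn1 knockdown against the empty vector. With 1 library left out the sign changed for Rpl41 (-0.16 to 0.061), Rps27l (-0.22 to 0.095), Rpl29 (-0.18 to 0.59 with 1 library left out, the lowest without empty vector library 2) and Rpl6l (-0.17 to 0.17, with -0.17 without empty vector library 2 and -0.11 without Ntn1 knockdown library 2, and -0.014 to 0.21 against the Unc5b knockdown, the lowest without Ntn1 knockdown library 2). Fitting fewer libraries leaves fewer degrees of freedom, and a group with 1 library is assumed to vary like the others; the cause of the other shifts was not tested. With the replicate number as a block 10, 0 and 4 members were called lower in the same 3 comparisons, and 0, 1 and 0 higher. The deviations of same-numbered libraries correlated at 0.16, -0.45 and -0.17. With 2 libraries a group these values cannot show whether same-numbered libraries were handled together, and the labels do not say. No pairing was used in the main fit.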
